A study of Drosophila melanogaster with 2 samples.

Results

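The peaks described here are the CG4854-eGFP binding peaks that lay inside introns near, but not at, the start of a protein-coding gene. They are the rows of the deposited pooled peak set on dm6 whose summit, the position of highest signal in a peak, fell inside a protein-coding gene, in no annotated exon, and over 500 and up to 2000 bp from the nearest protein-coding transcription start site (TSS). Of the 3106 peaks in that set, 416 met the rule, which is 13.4% (exact Clopper-Pearson 95% interval 12.2 to 14.6%). They are called near-start intronic peaks below. The set was limited by the irreproducible discovery rate (IDR), which measures how well the ranks of peaks repeat between replicates, and its members are called IDR peaks.

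The study mapped CG4854-eGFP, a C-terminal fusion with green fluorescent protein, in whole Drosophila melanogaster embryos aged 0 to 24 h, males and females pooled, by chromatin immunoprecipitation (ChIP) with an antibody against GFP and sequencing. All embryos carried the fusion, from 1 transgenic line, and the 2 samples, biological replicates 3 and 2, formed 1 group. There was therefore no comparison between conditions and no test between groups, and whole embryos mix all cell types of the first day of development. Untagged embryos were not analysed here, so signal that does not depend on the fusion was not measured.

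CG4854 encodes a zinc finger protein of the ZAD family, a group of DNA-binding proteins that is large in insects. Introns near the start of a gene are a common place for enhancers, for alternative promoters and for other regulatory DNA in Drosophila, and the first intron is often the longest. A ChIP peak there can be bound DNA in the intron itself or DNA that contacts a bound promoter, and peaks from whole embryos do not separate these.

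Sequence around the summits is shown first because the results return to it. The windows reach 100 bp to each side of a summit, on the plus strand of the RefSeq Release 6 assembly, and capitals mark each match to ACAGTG or its reverse complement CACTGT. This 6-mer differed most between the odd-ranked near-start intronic peaks and weak candidates at the same kind of position, in a search added after values were seen. The first window belongs to the strongest near-start intronic peak and holds no match. The others belong to Lk6, a strong peak with 1 match, and to NFAT and Csk, strong peaks with 2 matches each.
CG11050, 2L:6612627-6612827: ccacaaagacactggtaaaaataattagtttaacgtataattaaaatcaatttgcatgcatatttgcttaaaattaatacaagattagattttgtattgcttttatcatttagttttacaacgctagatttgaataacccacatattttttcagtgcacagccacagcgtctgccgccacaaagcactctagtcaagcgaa
Lk6, 3R:11760951-11761151: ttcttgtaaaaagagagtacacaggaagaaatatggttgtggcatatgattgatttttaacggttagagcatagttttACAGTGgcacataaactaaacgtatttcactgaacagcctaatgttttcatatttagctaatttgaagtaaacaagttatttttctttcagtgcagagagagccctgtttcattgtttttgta
NFAT, X:13640411-13640611: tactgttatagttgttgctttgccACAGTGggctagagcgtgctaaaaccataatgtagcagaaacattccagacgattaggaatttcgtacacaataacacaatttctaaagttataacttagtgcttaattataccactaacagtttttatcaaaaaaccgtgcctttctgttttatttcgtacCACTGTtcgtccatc
Csk, 3R:11649546-11649746: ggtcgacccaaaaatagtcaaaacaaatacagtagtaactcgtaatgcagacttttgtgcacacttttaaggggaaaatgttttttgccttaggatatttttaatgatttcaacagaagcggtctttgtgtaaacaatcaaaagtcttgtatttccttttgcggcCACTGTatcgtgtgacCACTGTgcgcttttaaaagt

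The windows share a stretch rich in A and T across the middle, with GC contents from 23.8 to 31.7% within 50 bp of the summit, and the 6-mer copies lie to the side of the summit. In NFAT the 2 copies began 76 bp before and 86 bp after it, and in Csk both lay after it, at 65 and 81 bp.

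Introns in this distance range cover 10.4 Mb, and near-start intronic peaks occurred at 40.2 per Mb. Introns farther than 2000 bp from a TSS held 549 IDR peaks at 13.0 per Mb. Promoters, defined as all positions within 500 bp of a TSS, held 1687 at 110 per Mb, intergenic DNA held 406 at 10.1 per Mb, and exons outside promoters held 48 at 1.86 per Mb. Near-start introns thus carried more peaks per length than the other classes away from promoters and fewer than promoters. Of the 4240 pooled candidates with a summit in near-start introns, 416 were in the IDR set, a share of 9.81%, beside 10.4% for all 30000 pooled candidates. Since the IDR call chose the peaks, that share is a description.

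Within the range, density fell with distance. It was 56.1 peaks per Mb of intron from 500 to 750 bp, where 115 peaks lay, and 43.5 per Mb from 750 to 1000 bp. The next steps of 250 bp held 35.5, 39.5 and 30.0 per Mb, so the fall was not even. The last 250 bp held 30.2 per Mb, where 43 peaks lay. Introns closer to the TSS, inside the promoter class, reached 134 per Mb within 250 bp, and those over 10000 bp away held 6.47 per Mb. Weak candidates, which are pooled candidates that overlap no IDR peak and rank below the median signal of such candidates, were more evenly spread, at 169 per Mb in the first 250 bp of the range and 149 per Mb in the last.

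**Figure D1:**
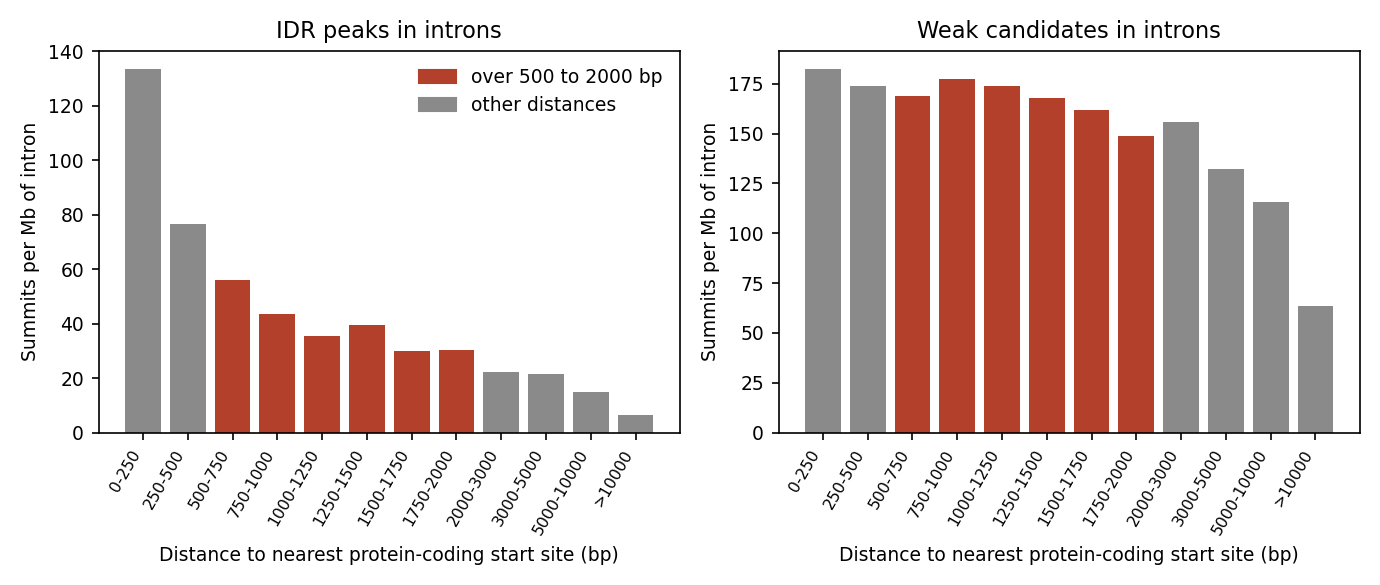
Summits per Mb of intron (y axes) against distance to the nearest protein-coding start site in bp (x axes, bins of unequal width), for IDR peaks on the left and weak candidates on the right. Red bars mark the range of the near-start intronic peaks, where IDR peak density was 56.1 per Mb at the near end and 30.2 per Mb at the far end, while weak candidates stood at 169 and 149 per Mb.

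At the lower bound, the peaks in Pino and kuk lay 502 bp from a TSS, just inside, and had signals of 129.9 and 287. Those in pAbp and CG5171 lay 497 and 499 bp from a TSS, just outside, with signals of 215 and 164. At the upper bound, the peaks in RhoGAP18B and CG13917 lay at 1973 and 1991 bp with signals of 114 and 106. Those in CG42709 and hiw, at 2016 and 2021 bp, had 113 and 199. Signal on both sides of each bound therefore overlapped.

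Signal, the authors' score for each peak, had a median of 146.8 among near-start intronic peaks, with quartiles of 115 and 217. Far intronic peaks had a median of 136.8, promoter peaks 149.7, intergenic peaks 141 and all IDR peaks 146.0. The near-start intronic peaks ran from 95.5 to 1649, whereas the highest far intronic peak reached 794. Among the 100 strongest IDR peaks, 13 were near-start intronic peaks, which is close to their share of the whole set.

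The strongest near-start intronic peak lay in CG11050, at rank 3 of all IDR peaks, with a signal of 1649 in the pooled list, 855 in replicate 2 and 799 in replicate 3. Its summit was 1040 bp downstream of the gene's TSS, in an intron of only 140 bp, the only near-start intronic peak in an intron under 200 bp. Its peak interval, 2L:6612462-6612932, is longer than that intron and therefore reaches into exons. In 28 of the 416 peaks (6.73%, exact 95% interval 4.52 to 9.58%) the interval touched an annotated exon although the summit did not.

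The second lay in the first intron of ush, which encodes a partner of GATA factors in blood and mesoderm, at 2L:480854-481308. Its signal was 1515 in the pooled list, 754 in replicate 2 and 762 in replicate 3. The nearest TSS belonged to cbt, a zinc finger transcription factor gene, and the summit lay 1403 bp upstream of it, so host and nearest gene differed. The third lay in Lk6, which encodes a kinase of the translation factor eIF4E, 972 bp upstream of an internal TSS, and had 1098 in the pooled list, 547 in replicate 2 and 556 in replicate 3. All 3 ranked within the first 12 of each replicate's own list.

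Regulators of chromatin and transcription were among the next hosts. Trl encodes GAGA factor, which binds GAGA repeats and opens chromatin. Its strongest peak had 844 in the pooled list, 448 in replicate 2 and 398 in replicate 3, 1524 bp downstream of a TSS and in a later intron. HmgZ encodes an HMG-box chromatin protein, and its strongest peak had 790.0 in the pooled list, 415 in replicate 2 and 384 in replicate 3. Adf1, a transcription factor first described at the Adh gene, had 626 in the pooled list with 400.0 in replicate 2 and 229 in replicate 3. In wde, a cofactor gene of the H3K9 methyltransferase Eggless, the signal was 501 in the pooled list, 271 in replicate 2 and 235 in replicate 3. Both replicates ranked each of these 4 within their first 154.

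Signalling and adhesion genes also appeared among the 25 strongest. The intron of cno, whose product Canoe links adherens junctions to actin, held a peak of 664 in the pooled list. It had 159 in replicate 2, rank 380, but 505 in replicate 3, rank 12, the widest gap among the 25. NFAT, a transcription factor gene, had 567 in the pooled list, 256 in replicate 2 and 308 in replicate 3. The gene for, which encodes a cGMP-dependent protein kinase, had 524 in the pooled list with 265 in replicate 2 and 263 in replicate 3. InR, the insulin receptor gene, had 462 in the pooled list, 193 in replicate 2 and 269 in replicate 3, and Csk, a kinase that inhibits Src, had 437, 234 and 200.0 in the same order. Of these genes cno had the widest gap between replicates.

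The remaining genes of the 25 strongest were CG32772, CG9663, CG9837, chif, CG31635, LPCAT, norpA, CG3726, Reph, CG9135, CG42327, CG4496 and KCNQ, with pooled signals from 409.9 to 971. chif encodes the Dbf4-type partner of the replication kinase Cdc7, and norpA the phospholipase C of phototransduction. The KCNQ peak, inside a potassium channel gene, was nearest to the TSS of mlt. Of the 25 summits, all but those in CG11050 and Trl lay in a first intron.

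Each near-start intronic peak was looked up in the candidate lists of both replicates, with summits within 100 bp counted as shared. A candidate was found in both for 398 of 416 peaks (95.7%, exact 95% interval 93.2 to 97.4%), beside 94.5% of all IDR peaks. The IDR set was chosen for ranks that repeat between replicates, so high shares follow from that choice and are a description. For the other 18, the candidate of 1 replicate lay 105 bp or more away, and 5858 bp away in the case of Elk. Over the 398 shared peaks, log2 of replicate 3 over replicate 2 had a median of -0.03 with an SD of 0.62 over peaks. It exceeded 1 in 29 peaks and was below -1 in 10, and of these 39 peaks 18 had a pooled signal above the median of near-start intronic peaks.

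Scores of the 2 replicates were correlated over these 398 peaks, with rho (Spearman) at 0.596 and r (Pearson, log2 values) at 0.702. The peaks share both libraries and the control file, and the IDR set was chosen for agreement between replicates, so these values are a description. The Spearman value was 0.595 over all IDR peaks, 0.642 for promoter, 0.577 for intergenic and 0.467 for far intronic peaks, so the near-start intronic value was close to that of the whole set. The lowest ratio was at simj, with 95.05 in replicate 2 and 16.1 in replicate 3. The highest was at a peak in mbc, a gene for an activator of Rac, with 20.03 in replicate 2 and 104 in replicate 3. In the pooled list the simj peak had 187, above the median, and the mbc peak 118, below it. Another near-start intronic summit in mbc lay 235 bp away from the same replicate 3 candidate. In all, 264 of the 416 (63.5%) matched the 3106 strongest candidates of both replicates, beside 63.6% of all IDR peaks. The IDR choice shapes these shares too.

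**Figure D2:**
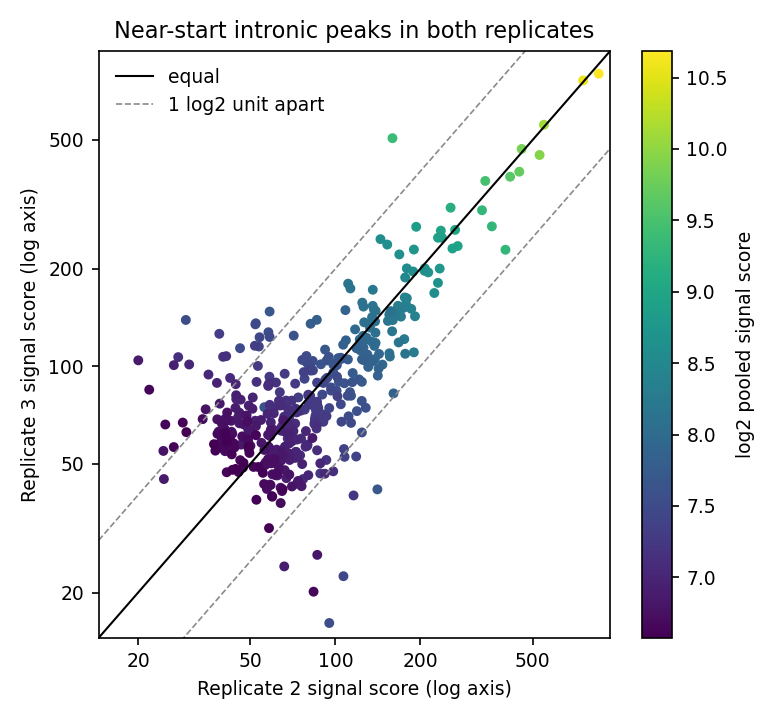
Signal score of the 398 near-start intronic peaks found in both replicates, replicate 2 on the x axis and replicate 3 on the y axis, both log axes, coloured by log2 of the pooled score. Points lie around the line of equality, 29 above and 10 below the dashed lines that mark 1 log2 unit, and 18 of these 39 had a pooled score above the median.

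The rule used the distance to a TSS but not which gene the TSS belonged to or its strand. For 274 peaks (65.9%, exact 95% interval 61.1 to 70.4%) the nearest TSS was one of the host gene and the summit lay downstream of it. For 109 (26.2%) the summit lay upstream of an alternative TSS of the host, and for 33 (7.93%) the nearest TSS was that of another gene. Among weak candidates in near-start introns, 65.0% lay downstream of a host TSS, 23.1% upstream of one and 11.9% nearest to another gene. The downstream share of the weak candidates was inside the interval of the near-start intronic share.

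First introns held 354 of the 416 summits (85.1%, exact 95% interval 81.3 to 88.4%). Weak candidates in near-start introns lay there in 72.8% (70.6 to 74.8%), far intronic IDR peaks in 62.5% (58.3 to 66.5%), and 66.2% of the near-start intron length was first intron in some transcript. The host introns of near-start intronic peaks had a median length of 4839 bp, against 4138 bp for weak candidates. The nearest TSS carried a promoter IDR peak within 500 bp for 93 of the near-start intronic peaks (22.4%, exact 95% interval 18.4 to 26.7%). The same held for 14.2% of weak candidates, 16.6% of far intronic peaks and 14.2% of all 19252 protein-coding TSSs. The nearest other IDR summit lay a median of 2974 bp away, against 6927 bp for weak candidates and 5815 bp for far intronic peaks. Weak candidates overlap no IDR peak by definition, so part of the contrast with them is built in. Intervals cover counting error over peaks only, and peaks of 1 gene are not independent.

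**Figure D3:**
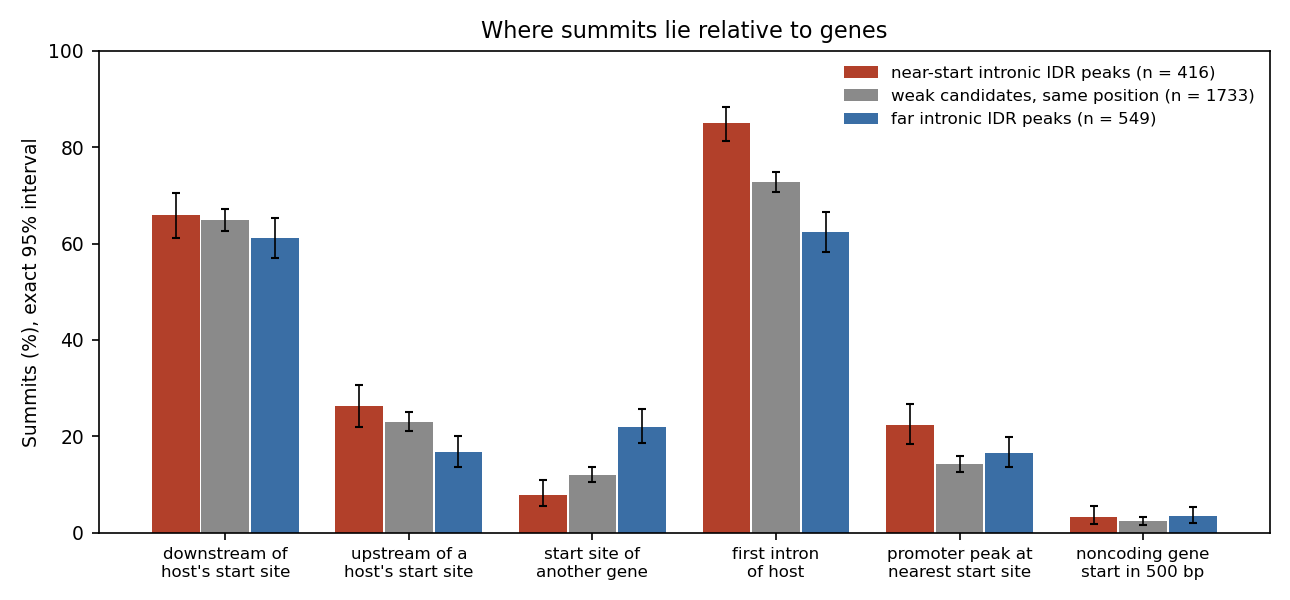
Share of summits in % (y axis, bars with exact 95% intervals) by their relation to genes (x axis), for near-start intronic IDR peaks in red, weak candidates in near-start introns in grey and far intronic IDR peaks in blue. First introns held 85.1% of near-start intronic summits, 72.8% of weak candidates and 62.5% of far intronic peaks, and a promoter peak stood at the nearest start site for 22.4% of near-start intronic peaks.

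Noncoding RNA genes start within 500 bp of 14 near-start intronic summits (3.37%, exact 95% interval 1.85 to 5.58%). Weak candidates in near-start introns gave 2.37%, far intronic peaks 3.46%, promoter peaks 4.51% and intergenic peaks 11.6%. The nearest was in Tlk, 12 bp from a noncoding transcript's start, and in FER an antisense RNA, CR46145, started 19 bp away. In kis, a chromatin remodeller gene of the Trithorax group, the long noncoding RNA CR44222 started 48 bp from the summit. These 3 peaks had signals of 99.3, 109 and 209, well below the strongest. The summit was inside a noncoding RNA gene in 20 cases (4.81%).

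The 416 peaks lay in 347 host genes, when each summit is given 1 host. One peak was found in each of 297 genes, 2 in each of 38 and 3 or more in 12. CG1677 held 6, with signals between 103 and 251 and summits that lay 567 to 1927 bp from a TSS. For all 6 that TSS belonged to another gene, CBP, brk, unc-119 or CG42780, and the summits were in 1 intron of 73902 bp. NFAT held 5, between 101 and 567, and Tlk, a Tousled-like kinase gene with 8 annotated TSSs, held 5 between 99.3 and 202. These 3 genes are on X, as is CHES-1-like, a forkhead gene with 3 peaks between 111 and 338. The others with 3 were CG10365, CG10543, Ptp99A, HmgZ, Shrm, Trl, shn and tou. The range of signal within 1 gene was wide in HmgZ, from 118 to 790.0, and in Trl, from 136 to 844. It was narrow in CG10543, from 151 to 164, and in Ptp99A, from 100.2 to 128.

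Near-start intronic peaks occurred at 48.9 per Mb of eligible intron on X, where 100 lay, and at 38.0 per Mb on the autosomes, a ratio of 1.29. The ratio was 1.32 for far intronic peaks, 0.772 for promoter peaks and 0.939 for weak candidates in near-start introns. With the strongest candidates of replicate 2 alone it was 1.41, and with those of replicate 3 alone 1.13. Chromosome 4 held 1 near-start intronic peak in 0.118 Mb of such intron. Embryos of both sexes were pooled, and the part of X copy number in these ratios was not tested.

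Base composition dipped at the summit. In the 101 bp centred on it, near-start intronic peaks had a mean GC content of 34.2% with an SD of 7.68 over peaks, against 42.02% with an SD of 9.79 in windows 500 bp away. GC was lower at the summit than in that flank for 293 of the 416 (70.4%, exact 95% interval 65.8 to 74.8%). Far intronic peaks had 33.9%, promoter peaks 36.9% and weak candidates in near-start introns 38.1%. By distance from the summit, GC in near-start intronic peaks was 34.2% within 50 bp, 37.7% from 50 to 100 bp and 42.6% from 150 to 200 bp. Weak candidates had 38.1%, 38.2% and 38.6% over the same steps.

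Known motifs were searched on both strands within 50 bp of each summit, each by the letters given. GAGAG, the core bound by GAGA factor, was present at 10.3% of near-start intronic summits and 10.7% of weak candidate summits. In windows 500 bp away it was present for 20.4% of near-start intronic peaks and 12.6% of weak candidates. By distance, GAGAG occurred 1.54 times per kb within 50 bp of near-start intronic summits and 4.40 times per kb from 150 to 200 bp. Weak candidates had 1.53 and 1.48 per kb in those steps, and far intronic peaks 1.73 and 3.04. Promoter peaks had 1.43 and 2.82 per kb. The site was thus scarcer at the summit of near-start intronic peaks than beside it, as it was in far intronic and promoter peaks. The part of the low GC content at the summit in this difference was not tested.

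TATAAA, the TATA box core, was found at 23.1% of near-start intronic summits (exact 95% interval 19.1 to 27.4%), 18.3% of weak candidates, 22.0% of far intronic peaks and 17.5% of promoter peaks. It is made of A and T alone, and the part of the low GC content in its share was not tested. CGATA, the core of BEAF-32 sites, which overlaps the longer TATCGATA, was found at 11.8% of near-start intronic summits, against 24.5% of promoter peaks and 10.5% of weak candidates. TATCGATA, the DNA replication-related element of many housekeeping promoters, was found at 1 near-start intronic summit (0.24%), against 4.62% of promoter peaks. GGTCACAC, the M1BP motif core, was also found at 1 (0.24%), against 2.61% of promoter peaks. CATATG, an E-box bound by Twist, was found at 6.73% (4.52 to 9.58%), against 6.19% of far intronic peaks (4.33 to 8.55%), 4.33% of weak candidates (3.42 to 5.39%) and 3.32% of promoter peaks.

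The motifs of CTCF, Su(Hw) and Pho were sparser than those of GAGA factor and BEAF-32, but they were searched as longer words. The same order held in weak candidates, where GAGAG stood at 10.7% and CGATA at 10.5%. The part of word length in the shares of different motifs was not tested. The CTCF core, spelled AGGNGGC, was found at 2.16% of near-start intronic summits, against 2.54% of weak candidates. The Su(Hw) core TTGCATAC was found at 0.721% of near-start intronic summits, against 0.923% of weak candidates. GCCATTT, bound by Pho, was found at 1.44% of near-start intronic summits, against 2.37% of weak candidates. Of the motifs of early activators, the Zelda site CAGGTAG was found at 0.481% and the GATA site AGATAAG at 1.92% of near-start intronic summits. Targets of signalling factors were found at 0.962% for the Su(H) site GTGGGAA, 0.24% for the Mad site GCCGNCGC, 2.16% for the TCF site CTTTGAT and 3.61% for the Stat92E site TTCNNNGAA. The AP-1 site TGANTCA was found at 3.85% of near-start intronic summits, the Grainyhead site AACCGGTT at 0.24%, the proneural E-box CAGCTG at 3.37% and the Myc E-box CACGTG at 0.481%. TAATTA, the homeodomain core, was the most common of these, at 10.3% of near-start intronic summits and 9.06% of weak candidates. The Ets site CCGGAAG was found at none of the 416, for which the upper exact bound is 0.883%. No match says only that these letters were not in the window. For 19 of the 21 motifs the share in weak candidates was inside the exact 95% interval of the near-start intronic share, and for the other 2, TATAAA and CATATG, it was below that interval. With 21 motifs examined, these were given no test.

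A search of all 8-mers within 50 bp took the 10 whose share in the 208 odd-ranked near-start intronic peaks exceeded that in weak candidates the most. In the 208 even-ranked peaks 6 of the 10 had a higher share than in weak candidates, and 8 of the 10 held at most 1 G or C. Chosen after values were seen, windows of 150 bp to each side and 6-mers were searched in the same way. Of the 10 leading 8-mers in the wide windows, 7 had a higher share in even-ranked peaks than in weak candidates. All 10 leading 6-mers had a higher share, but by little for TTAAAA (49.5 against 49.0%) and AAAAAA (54.8 against 51.8%). Of these 10 6-mers, 5 hold CACTG or its reverse complement CAGTG, so they overlap each other. Because all peaks had been seen before these added searches, the even-ranked peaks are no independent check.

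ACAGTG, marked in capitals in the windows above, was present within 150 bp of 33.7% of odd-ranked and 27.9% (exact 95% interval 21.9 to 34.5%) of even-ranked near-start intronic summits. It was present in 12.8% of weak candidate windows (11.2 to 14.4%) and in 16.8% of windows of the same length 500 bp from the even-ranked summits. Far intronic peaks had 28.2%, promoter peaks 24.2% and intergenic peaks 21.4%, so its share was above that of weak candidates in each of the 4 IDR peak classes searched. Its density in near-start intronic peaks was 1.15 per kb within 50 bp, 1.75 per kb from 50 to 100 bp and 0.409 per kb from 350 to 400 bp, whereas weak candidates had 0.462, 0.525 and 0.381 per kb in those steps. Of the 416 peaks, 37 had 2 or 3 copies within 150 bp and a median signal of 177 (quartiles 109.9 and 305), 91 had 1 copy and a median of 160.2 (121 and 235), and 288 had no copy and a median of 140.3 (115 and 203). The signals of these groups overlapped widely.

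**Figure D4:**
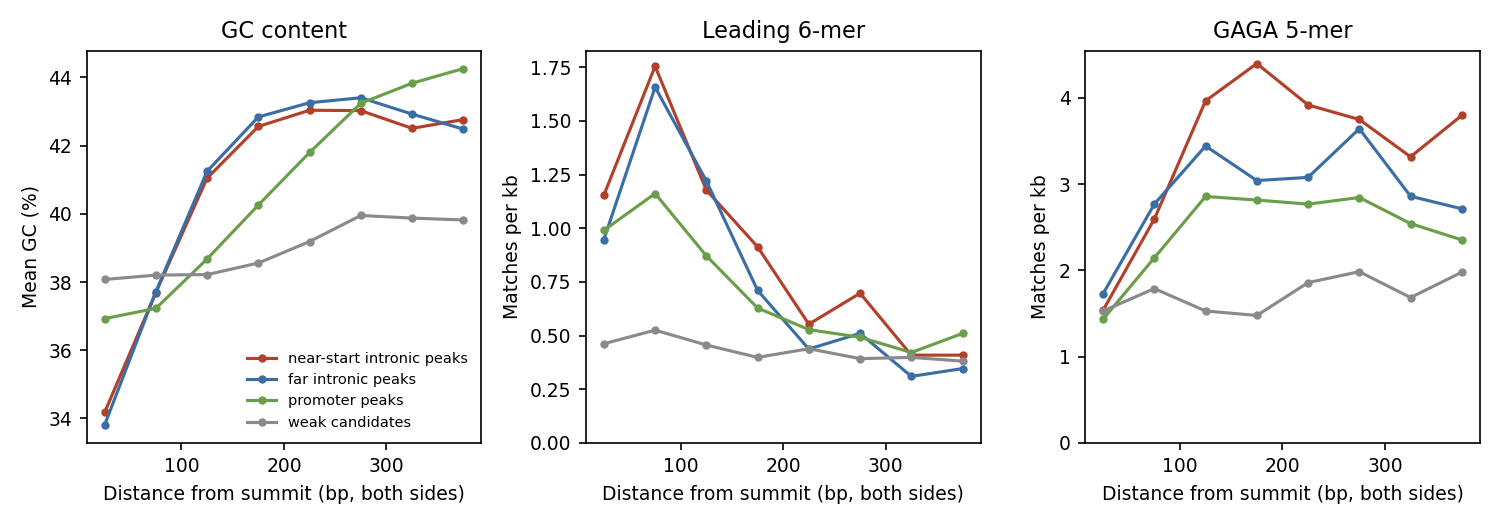
Mean GC content in % (left) and matches per kb to the leading 6-mer (middle) and the GAGA 5-mer (right) against distance from the summit in bp, both sides merged in steps of 50 bp. In near-start intronic peaks (red) GC was 34.2% in the first step and 42.6% from 150 to 200 bp, the 6-mer peaked at 1.75 per kb from 50 to 100 bp, and the GAGA 5-mer reached 4.40 per kb from 150 to 200 bp.

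Host genes were counted over 18 lists of genes by role, chosen with earlier results of these data known. The denominator is the genes of a list that have any eligible intron, and among all 9127 such genes 367 held a near-start intronic summit, when every gene that contains the summit counts, which is 4.02%. Genes of EGF receptor signalling, the pathway by which Spitz and related ligands activate Ras and MAP kinase, held one in 7 of 20 (35.0%). Median eligible intron in that list was 1455 bp, against 388 bp over all genes, and peaks occurred at 149.8 per Mb, against 40.2 per Mb in all near-start intron. The list thus had both more eligible intron per gene and more peaks per length, from 7 peaks in 0.047 Mb. Such a density was not particular to it. Polycomb and Trithorax genes had 145 per Mb, JAK-STAT and insulin genes 135 and insulator genes 131. All 3 peaks of the insulator list lay in Trl, and the same 3 are among the 5 of the Polycomb and Trithorax list.

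The EGF receptor genes with a peak sat at several steps of the pathway. S encodes Star, which carries the ligand precursor through the cell, and its peak had 237 in the pooled list, 121 in replicate 2 and 115 in replicate 3. drk encodes the adaptor between receptor and Ras, and its peak had 301, 158 and 147 in the same order, nearest to the TSS of mars. Raf, the kinase below Ras, had 175 in the pooled list and 107 in replicate 2 but 22.5 in replicate 3, where the candidate ranked 12739. The inhibitor sty, Sprouty, had 140.6, with 63.0 and 78.2 in replicates 2 and 3. Among the nuclear factors, the repressor aop had 105, the activator pnt 101 and edl, which binds both, 305.

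Dpp pathway genes, of the BMP type, held a peak in 4 of 19 (21.1%), at 112 peaks per Mb. These were the receptor genes wit and put, the Smad gene Mad and shn, a zinc finger partner of Mad. The wit peak was nearest to the TSS of another gene, CG32259. The Mad peak was the strongest, with 276 in the pooled list, 135 in replicate 2 and 142 in replicate 3, and put the weakest with 98.1, 26.7 and 56.3. In the JAK-STAT and insulin list 4 of 20 genes held one. Besides Lk6 and InR these were Stat92E, with 137, and its feedback inhibitor Socs36E, with 109.9.

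Axon guidance and adhesion genes held a peak in 7 of 43 (16.3%), at 53.1 per Mb, and had a median of 2703 bp of eligible intron per gene. kirre, an adhesion gene of muscle founder cells, had 233 and the secreted guidance gene NetB 225, and the receptor phosphatase Ptp10D had 198. The kirre peak was nearest to the TSS of CG32795, which also contains it, and the NetB peak to that of hog. The lists of Polycomb and Trithorax genes (3 of 31, Trl, kis and ph-p) and of neural genes (3 of 31, brat, elav and nrv2) each gave 9.68%. Small GTPases and regulators gave 4 of 35 (11.4%), led by Rab11 at 226. Germline genes gave 2 of 22 (BicD and Sxl), ecdysone response genes 2 of 23 (Hr4 and tai), and Wingless and Hedgehog genes 2 of 25 (Wnt4 and boi). Notch pathway genes gave 1 of 17 (neur, an E3 ligase for Delta), insulator genes 1 of 19 (Trl again), dorsoventral genes 1 of 26 (ush) and translation factors 1 of 31 (eIF4EHP). The peaks in BicD, Wnt4 and eIF4EHP were nearest to the TSSs of Sgt, CG31909 and Syx1A, in that order.

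No near-start intronic peak was found in 8 Hox genes, 27 segmentation genes, 24 muscle structural genes or 27 cell cycle and DNA replication genes with eligible intron. The last list does not hold the kinase gene Cdc7 or its partner chif. Both hosted a near-start intronic peak, with a signal of 235 in Cdc7 and 629 in chif. Cell cycle genes had 340 bp of such intron at the median, near the 388 bp of all genes, whereas Hox genes had 1514 bp and muscle genes 1283 bp. Over all genes with eligible intron the share with a peak was only 4.02%, so lists of this size can lack a host without being depleted. Counts this small were given no test.

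**Figure D5:**
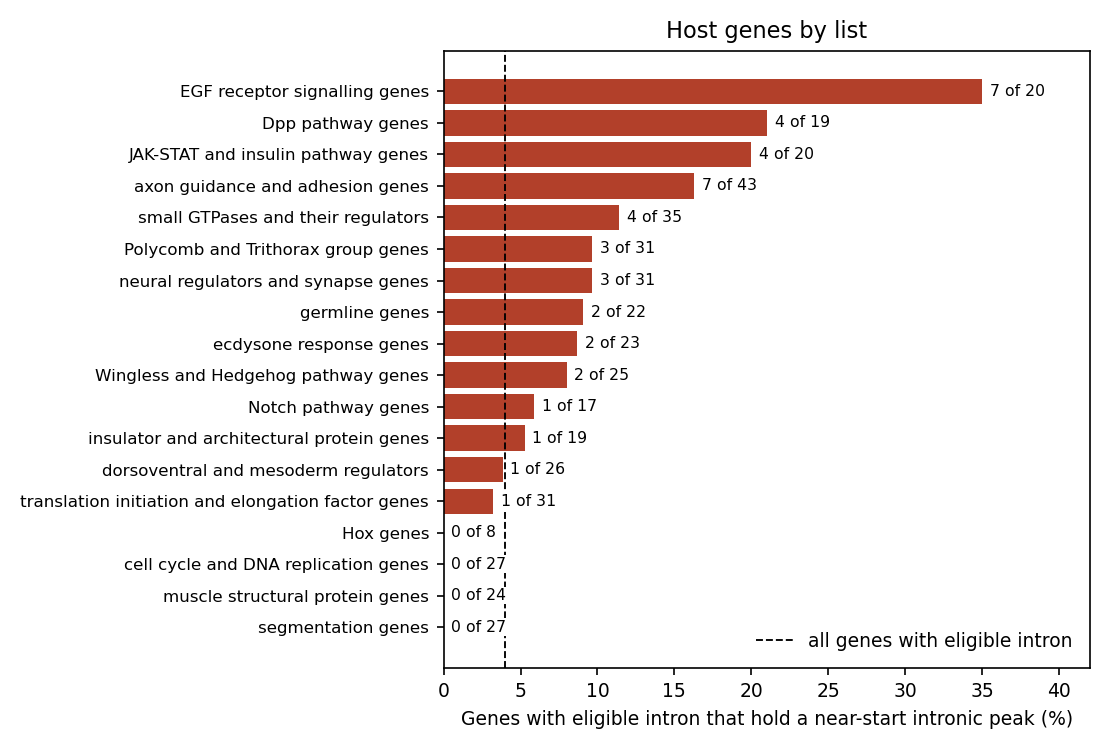
Share of genes with eligible intron that hold a near-start intronic peak in % (x axis) for each of 18 gene lists (rows), with the count beside each bar and a dashed line at 4.02% for all genes. EGF receptor signalling genes stand at the top with 7 of 20, and 4 lists have no gene with such a peak.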

How the data were processed

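ChIP was done on whole CG4854-eGFP embryos, 2 biological replicates in 1 group. The authors deposited narrowPeak lists, 30000 candidates for each replicate and for the pooled data, and an IDR set of 3106 peaks. Per the text deposited with the samples, each replicate's list came from its own alignments and a control file. The signal column is the authors' score, used within 1 list or between replicates as a ratio. The deposited −log10 q-value column was constant in the IDR set and was not used to rank. The deposited summit offset gave summit positions. Aligner, peak caller, IDR threshold and read depth were not given in the sources used here, so intervals cover counting error over peaks only. The dm3 lists were not used here.

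Genes came from Ensembl release 115 (BDGP6 version 54) and sequence from the RefSeq Release 6 assembly, both matching dm6, on 6 arms. Of 511 list symbols, 1 had no match. Distances used every protein-coding TSS, exon and intron positions every transcript of protein-coding genes. Weak candidates were the 13096 pooled candidates without overlap with an IDR peak and below their median signal, and 1733 of them lay in near-start introns. Not every sequence window with matches is reported here. Shares have exact Clopper-Pearson 95% intervals. Gene lists counted host genes only, not nearest genes. By rule, the text names the hosts of the 25 strongest peaks, up to 4 genes per list by signal, hosts with 3 or more peaks and 2 peaks on each side of each bound. Named outside it, after values were seen, were sty, aop, pnt, Cdc7, simj, mbc, Elk, FER, noncoding RNAs and the genes nearest to CG1677 peaks. Genes nearest to the peaks of list genes were also named outside it. The members and lists were chosen with earlier results of these data known. The 8-mer search was tested on simulated data with a planted sequence, which it recovered. The planted share was above the 4.33 to 6.73% of the leading 8-mers in odd-ranked peaks. Recovery at those shares was not tested. Alternatives changed distances, windows, peak sets and replicates. Python 3.11.15, pandas 2.3.3, NumPy 2.4.6, SciPy 1.17.1 and matplotlib 3.10.9 were used.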

Additional observations from a re-analysis of the deposited data

How the results depend on the processing

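Of 80 values recomputed under alternatives, 56 stayed within their interval, or within 1.5 times for counts, and 24 moved. None changed direction. The near-start range gave 416 peaks, with 217 when over 1000 and up to 2000 bp, 199 when over 500 and up to 1000 bp and 210 with only the 1553 strongest IDR peaks. Fewer peaks and list genes follow from such cuts alone, as do fewer peaks per Mb with the strongest peaks only. The 1553 strongest also gave 20.3 peaks per Mb, 54.3% of summits with any of the 21 motifs (59.6% in the full set) and 33.1% GC. They gave 27 list genes with a peak (41 in the full set). Over 1000 bp 24 list genes had one, and up to 1000 bp 20. The downstream share was 57.3% over 300 bp, 71.9% over 1000 bp and 59.3% up to 1000 bp. Any motif was found at 37.5% of summits in windows of 25 bp and at 84.1% in windows of 100 bp to each side. Both replicates held a summit within 50 bp for 75.7% and within 200 bp for 98.8%. Noncoding starts lay within 200 bp of 1.44% and within 1000 bp of 5.77%. All 10 leading 6-mers in the wide windows, added after seeing the data, had higher shares in even-ranked peaks than in weak candidates, though TTAAAA had only 49.5 against 49.0%. For 8-mers in those windows it was 7 of 10. With either replicate left out, mean GC was 33.2 to 35.8%.

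Leaving out a replicate meant using the other one's strongest candidates, as many as the IDR set, and it kept first-intron shares between 83.7 and 86.5%, ACAGTG shares between 29.6 and 30.1% and EGF receptor hosts at 6 each. Those hosts numbered 8 over 300 bp, 4 over 1000 bp, 3 up to 1000 bp and 4 with the 1553 strongest. Signal medians and replicate ratios could not be recomputed that way. No paired analysis was possible because the 2 samples form 1 group. Unknown read depth limits all counts, and no threshold below IDR was tried.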

Other observations

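Copies of ACAGTG or its reverse complement within 150 bp of the summit were unevenly spread over chromosome arms among the near-start intronic peaks. They were present at 39 of 100 peaks on X (39.0%), 28 of 68 on 2R (41.2%) and 32 of 103 on 3R (31.1%), but at 15 of 69 on 2L (21.7%) and 14 of 75 on 3L (18.7%). The difference between arms was noticed in these data and was not tested, and neighbouring peaks of 1 gene share an arm.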
